A study of Mus musculus with 13 samples.

Results

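C/EBPα candidate regions around 7 genes of the Myc network were examined in LSK cells, the lineage-negative fraction of bone marrow sorted for Sca-1 and c-Kit. The genes were Myc, Mycn (N-Myc), Mycl1 (L-Myc), their partner Max, and the Max-binding repressors Mxd1, Mxi1 and Mnt. A region was taken when its centre lay within 100 kb of the annotated transcription start site (TSS) of one of these genes, and for Myc also when it lay up to 2 Mb downstream. This gave 29 of the 17899 regions in the list, 22 of them within 100 kb of a TSS and 7 farther downstream of Myc. The study comprises 13 samples, and the list of 1 of them was used here, a C/EBPα ChIP from sorted LSK cells of the strain C57BL/6 cebpa flox/flox;Mx1Cre with the antibody Santa Cruz 14-AA. ChIP-seq sequences the DNA that an antibody recovers from fixed chromatin. The other 12 samples were not analysed here. Both Cebpa alleles of this strain are floxed, and Mx1Cre is a Cre recombinase under an interferon-inducible promoter. The labels of this sample do not say whether the alleles had been deleted. LSK cells hold stem cells together with multipotent progenitors, and a list of regions carries no RNA values with which the sorted cells could be checked against their markers.

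MYC, MYCN and MYCL are basic helix-loop-helix leucine zipper proteins that bind DNA as dimers with MAX, at the E-box CACGTG, and activate genes of growth and proliferation. MXD1, MXI1 and MNT form dimers with the same partner, bind the same E-box and recruit SIN3 corepressors, so that the balance between the groups sets the output of the network. In blood, Myc drives stem cells out of the niche and into proliferation and differentiation, Mycn acts beside it in the most primitive cells, and Mxd1 rises as myeloid cells mature. C/EBPα, a leucine zipper factor of myeloid differentiation, is known to restrain Myc.

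Each region carried a score. It equals -log10 of the MACS p-value multiplied by 10, and MACS is a program that compares local read numbers of the ChIP with those of a control, here an IgG mock. A higher score means a more marked excess of reads. The list is the candidate stage. The authors later kept a filtered set after checks of peak height, presence in both of their C/EBPα samples, IgG level and appearance, and 397 of the candidates (2.22%) are in that set. With 1 list there is no replicate, no difference below has a test, and the number of reads behind a region is unknown. Positions are in mm9, distances run from the TSS to the centre of the region, and negative distances lie upstream.

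The sequences that follow are the 141 bases around the centres of the promoter-proximal regions of Myc, Mxd1 and Mnt and of the region with the highest score in the far window of Myc, and the 250 bases before the start of Mnt. They are shown because these are the 4 regions that hold a C/EBP word at the centre or belong to the filtered set. All are the plus strand of mm9. Capitals mark C/EBP words (TTGCNNAA or TTACNNAA on either strand) in the first 4, together with the cyclic AMP response element TGACGTCA in Mxd1. In the last sequence capitals mark AGGAAGC (an ETS word), CACGTG and CCCGCCC (an SP1 word, GGGCGGG on this strand where it lies on the other).
Myc, chr15:61815107-61815247: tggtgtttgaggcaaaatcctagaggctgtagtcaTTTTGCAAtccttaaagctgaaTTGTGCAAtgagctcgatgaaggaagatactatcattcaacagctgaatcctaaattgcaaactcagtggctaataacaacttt
Myc far downstream, chr15:63756168-63756308: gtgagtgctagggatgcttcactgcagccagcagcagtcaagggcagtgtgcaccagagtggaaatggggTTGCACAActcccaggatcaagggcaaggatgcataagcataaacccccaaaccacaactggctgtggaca
Mxd1, chr6:86619416-86619556: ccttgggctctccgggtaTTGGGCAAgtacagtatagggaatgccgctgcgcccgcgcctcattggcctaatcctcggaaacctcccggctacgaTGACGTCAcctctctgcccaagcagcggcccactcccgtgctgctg
Mnt centre, chr11:74643979-74644119: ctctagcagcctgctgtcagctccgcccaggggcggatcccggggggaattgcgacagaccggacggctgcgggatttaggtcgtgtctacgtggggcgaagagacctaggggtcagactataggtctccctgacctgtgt
Mnt before the start, chr11:74644172-74644421: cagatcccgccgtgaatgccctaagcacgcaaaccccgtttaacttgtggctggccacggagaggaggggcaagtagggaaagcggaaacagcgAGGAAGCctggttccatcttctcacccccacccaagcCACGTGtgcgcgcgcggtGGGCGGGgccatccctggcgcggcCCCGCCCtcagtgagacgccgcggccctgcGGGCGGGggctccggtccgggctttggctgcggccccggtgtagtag
The centre of the Mnt region has no capitals because neither form of the C/EBP word occurs in it.

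All 7 genes had a candidate region within 100 kb, where 79.2% of all 22359 protein-coding genes also had one, so the presence of a region at this distance did not set them apart. Mnt, Mxd1 and Myc differed from the other 4 in having a region close to the start. Within 1 kb of the TSS, 2 of the 7 genes (Mnt and Mxd1) had a candidate, against 3.03% of all genes. Within 5 kb, 3 of 7 (Mnt, Mxd1 and Myc) had one, against 8.80% of all genes. The filtered set held a region within 100 kb for Mnt alone, against 5.98% of all genes, and within 1 kb also for Mnt alone, against 0.586% of all genes. The median distance to the nearest candidate was 13159 bp over the 7 genes and 39295 bp over all genes.

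**Figure D1:**
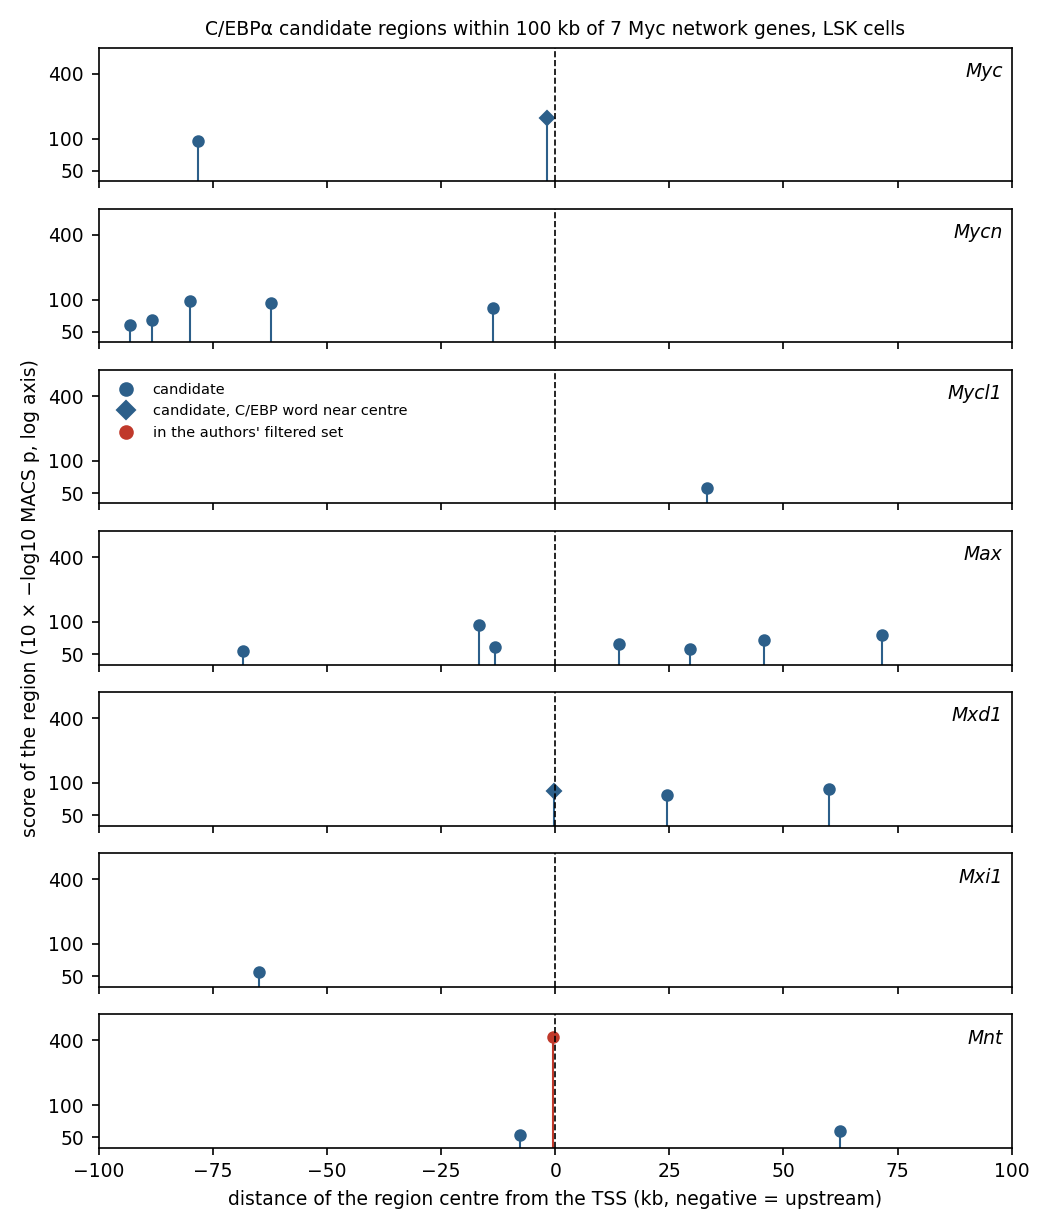
Candidate regions within 100 kb of each gene, by distance of the region centre from the TSS (kb, horizontal axis) and score (log axis). Diamonds hold a C/EBP word within 70 bp of the centre and red marks the filtered set. The Mnt region at -373 bp, with a score of 426.6, stands above the other 21, and the regions of Mycn all lie upstream.

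Myc (chr15:61816946-61821905, plus strand), the founding member, had 2 regions within 100 kb, both upstream and intergenic. The nearer one, chr15:61814836-61815518, was centred at -1769 bp and had a score of 155.49, which placed it 687th in the list, so that 3.84% of candidates scored at least as high. Its 683 bp held 3 C/EBP words, and 2 of them lay at the centre, TTTTGCAA at -32 bp and TTGTGCAA at -10 bp from the midpoint. It held 2 ETS words, 1 RUNX word and 1 SP1 word besides. A window of the same length held at least 1 C/EBP word at 41.2% of all candidates and at 46.0% of all TSSs when placed at the same distance upstream. Of the 687 candidates that scored at least as high, 70.6% held a C/EBP word and 36.4% held one within 70 bp of the centre. The region at -1769 bp was the highest-scoring candidate of the MYC and MAX genes, and its nearest TSS was that of Myc. It was not in the filtered set, although 306 of the 687 candidates that scored at least as high (44.5%) were. The second region, chr15:61738521-61738908 at -78231 bp, scored 95.29 and lacked a C/EBP word. Of all genes, 8.42% had a candidate within 100 kb that scored at least as high as the better of the pair.

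Downstream of Myc, where enhancers active in blood lie far beyond the gene, the 2 Mb window held 7 candidates, none of them in the first 100 kb and none in the filtered set. Their scores ran from 53.32 to 107.13 with a median of 75.17. The window downstream of other genes held a median of 17 candidates (quartiles 12 and 22, over 22111 genes), and 12.2% of genes had as few as Myc or fewer. The neighbourhood is poor in genes, with 5 protein-coding TSSs in the window against a median of 24. Among the 1676 genes whose window held 5 TSSs or fewer, the median was 8 candidates and 43.7% had as few as Myc, so the count at Myc was close to that of other gene-poor windows.

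No candidate lay between 397.7 and 1558.3 kb from the Myc TSS, and none between 1558305 and 1939292 bp. The first 4 downstream regions lay inside Pvt1, the long noncoding RNA gene next to Myc that spans 52.6 to 392.7 kb from its TSS. They were centred at 114616 bp (score 75.17), 116704 bp (53.32), 232903 bp (73.24) and 320504 bp (83.38), and another followed beyond the end of Pvt1 at 397717 bp (92.95). The next lay at 1558305 bp (64.5). The gap of 1160.6 kb between these last regions was long for the list, where the median gap between neighbours was 78.6 kb and 0.699% of the 17878 gaps were as long. This gap was picked as the longest of the window, and the longest gaps of other gene-poor windows were not computed. In the region at 320504 bp, 70.3% of the 32-mers occurred elsewhere in the genome as well, the highest share among the 29 regions, whose median was 0.197%.

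The highest score in the far window belonged to chr15:63755781-63756694, centred at 1939292 bp, 914 bp wide, with a score of 107.13 that 15.6% of candidates matched or passed. It held TTGCACAA at 4 bp from its midpoint and TTACACAA farther out, and a RUNX word, AACCACA as read on the plus strand, at 53 bp. Windows of that length held a C/EBP word at 52.8% of candidates. It lay between Gsdmc4, a member of the gasdermin C cluster whose TSS was the nearest at -21747 bp, and the far end of Fam49b, which begins 1943.7 kb from the Myc TSS. The list does not tell which gene, if any, a region at such a distance acts on.

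**Figure D2:**
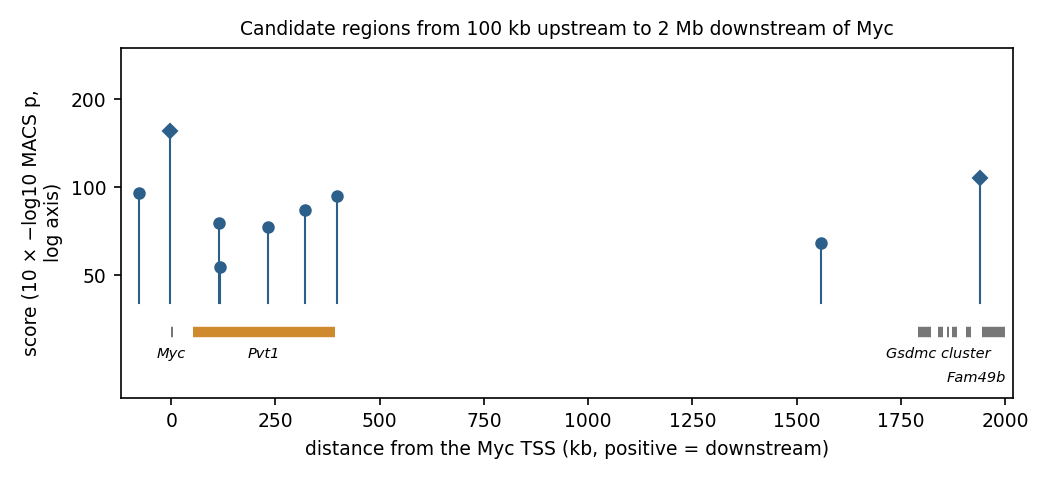
Candidates from 100 kb upstream to 2 Mb downstream of the Myc TSS, by distance (kb) and score (log axis). Diamonds hold a C/EBP word within 70 bp of the centre, the orange bar is Pvt1 and grey bars are protein-coding genes, with Fam49b drawn to the end of the window. No candidate lies between 397.7 and 1558.3 kb.

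AP-1 words (TGACTCA or TGAGTCA, which are each other's complement) lay near the centre, within 70 bp, in 4 of the 9 regions around Myc (44.4%, exact 95% binomial interval 13.7 to 78.8) and in 0 of the 20 regions of the other genes. Among all candidates 2.57% held one there, and in the filtered set 2.52%. AP-1 is the dimer of FOS and JUN leucine zipper proteins. This word was singled out after the values of 7 words had been seen, and the regions of 1 locus are not independent of each other. The 4 centres are shown to let the surroundings of the word be read, with AP-1 words in capitals.
Myc -78.2 kb, chr15:61738645-61738785: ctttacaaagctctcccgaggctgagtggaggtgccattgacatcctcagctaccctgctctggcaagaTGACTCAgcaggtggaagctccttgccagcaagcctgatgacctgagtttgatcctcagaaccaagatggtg
Myc 114.6 kb, chr15:61931492-61931632: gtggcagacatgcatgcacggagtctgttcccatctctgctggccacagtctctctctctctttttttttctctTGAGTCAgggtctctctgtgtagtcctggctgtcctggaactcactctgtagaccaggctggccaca
Myc 116.7 kb, chr15:61933580-61933720: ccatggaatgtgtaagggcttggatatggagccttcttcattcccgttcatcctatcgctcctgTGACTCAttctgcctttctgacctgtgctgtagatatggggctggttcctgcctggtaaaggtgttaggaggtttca
Myc 320.5 kb, chr15:62137380-62137520: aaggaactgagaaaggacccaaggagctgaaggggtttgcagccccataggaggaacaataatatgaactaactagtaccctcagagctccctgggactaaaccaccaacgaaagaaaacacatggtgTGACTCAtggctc
The word lay 2, 7 and -3 bp from the midpoint in the first 3 and at 61 bp in the last. In the second it follows a run of ct repeats, and the last is the region with 70.3% repeated 32-mers. The region at 114616 bp also held a CACGTG, at 230 bp from its midpoint.

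Mycn (chr12:12942902-12948720, minus strand), the paralogue expressed with Myc in the stem cell compartment, had 5 regions within 100 kb, a number that 5.84% of genes reached. All 5 lay upstream in intergenic sequence, and Mycn was the nearest TSS of each. The nearest was centred at -13649 bp with a score of 84.2 and a RUNX word at its centre. The highest score, 97.18, belonged to the region at -79867 bp, and the region at -62182 bp followed with 92.8. Both held a central GATA word (AGATAA or TGATAA). The 2 farthest, at -88273 bp (64.97) and -93134 bp (58.15), were the only ones with a C/EBP word, and in neither was it within 70 bp of the centre. Of all genes, 29.8% had a candidate that scored at least 97.18. The limit of 100 kb left out a region at 100147 bp with a score of 56.84.

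Mycl1 (chr4:122673187-122679728, plus strand), the third MYC gene, had a single region, at 33299 bp downstream with a score of 55.25. Its centre lay in intron 1 of Trit1, a tRNA-modifying enzyme gene whose own TSS was nearer, at 12646 bp. The region held no C/EBP, E-box, ETS, RUNX, SP1 or AP-1 word, and 1 GATA word farther than 70 bp from its centre. Scores as high or higher were found within 100 kb of 75.1% of genes. The next candidate lay at -176115 bp.

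Max (chr12:78038256-78063235, minus strand), the obligate partner of both the MYC and the repressor proteins, had the most regions of the 7 genes. There were 7 within 100 kb, a number that 0.662% of genes reached, where the median over all genes was 2 (quartiles 1 and 3). None of these scores was high, with a range from 53.08 to 92.99 and a median of 61.54, and 33.6% of genes had a candidate that scored at least 92.99. The nearest, at -13159 bp, had a score of 58.84, and the highest, at -16711 bp, lay beside it upstream. Each held a C/EBP word farther than 70 bp from the centre, and no other region of Max held one. A region at 13994 bp (61.54) lay in intron 2 of Max itself. Those at 45821 bp (67.14) and 71480 bp (74.89) lay in coding exon 13 and in intron 8 of Fntb, which encodes the beta subunit of farnesyltransferase.

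Within the region in the Fntb exon, CACGTG lay 8 bp before the midpoint on the plus strand, with an ETS word and an SP1 word also within 70 bp. The only other member with a CACGTG within 70 bp of its centre was a region of Mnt at 62341 bp, which lay in intron 1 of Sgsm2 with a score of 57.42. Both centres are printed because the E-box is the word that proteins of the network themselves bind, with CACGTG in capitals and, in the first, also the ETS word CGGAAGC.
Max 45.8 kb, chr12:78017344-78017484: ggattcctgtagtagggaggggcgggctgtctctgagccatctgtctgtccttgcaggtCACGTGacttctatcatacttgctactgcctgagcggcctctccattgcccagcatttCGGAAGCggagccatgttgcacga
Mnt 62.3 kb, chr11:74706693-74706833: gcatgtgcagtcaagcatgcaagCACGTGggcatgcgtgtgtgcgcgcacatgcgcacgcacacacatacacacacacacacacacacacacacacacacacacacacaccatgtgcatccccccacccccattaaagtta
The second E-box stands beside a long run of ac repeats. Both regions were outside the filtered set.

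**Figure D3:**
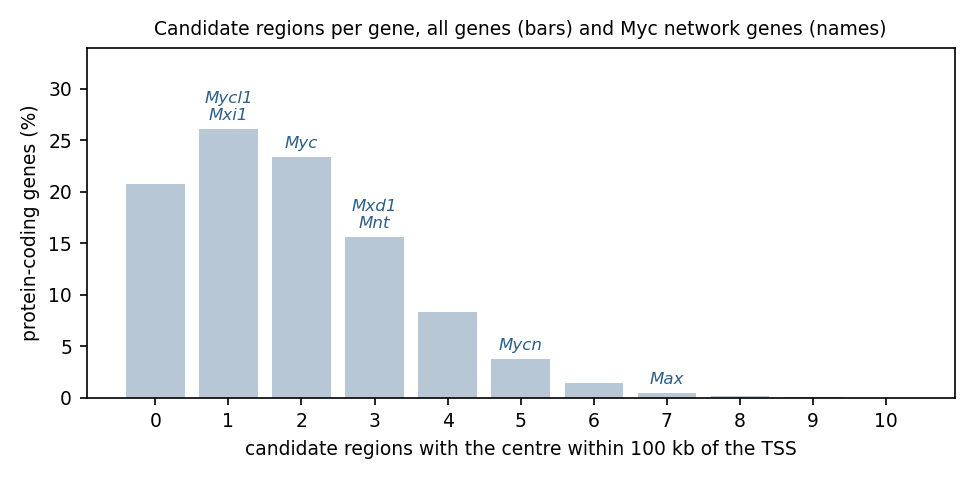
Share of the 22359 protein-coding genes (%, vertical axis) by the number of candidate regions within 100 kb of the TSS (horizontal axis), with each gene of the Myc network named above its number. Mycl1 and Mxi1 have 1, Myc has 2, Mxd1 and Mnt have 3, Mycn has 5 and Max has 7.

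Mxd1 (chr6:86597038-86619153, minus strand), the repressor that accompanies myeloid maturation, had a region at its promoter. This region, chr6:86619260-86619712, was centred at -333 bp, did not reach the TSS and had a score of 83.26. Of the candidates within 1 kb of a TSS, 49.7% scored at least as high, so its score was typical of promoter candidates. It was 453 bp wide with a GC content of 68.4%. A C/EBP word, TTGCCCAA on the minus strand, lay -288 bp from the TSS and -48 bp from the midpoint, and TGACGTCA, the word of CREB and ATF factors, lay at -365 bp. Windows of the same length held a C/EBP word at 28.7% of candidates and at 31.5% of promoters, and TGACGTCA at 0.514% and 0.85%. The TGACGTCA was looked for after the sequence had been seen. It also held 3 SP1 words, a word found in 19.1% of such promoter windows. The region was not in the filtered set, which took 119 of the 638 candidates within 1 kb of a TSS (18.7%).

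The other 2 regions of Mxd1 lay downstream, at 24470 bp (score 77.69) and 59865 bp (88.58), and for both the nearest TSS was that of Asprv1, a protease gene of the skin. The farther one had the highest score of the 3 and 2 C/EBP words, neither within 70 bp of its centre. Of all genes, 38.4% had a candidate that scored at least 88.58.

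Mxi1 (chr19:53384996-53450300, plus strand), a close relative of Mxd1, had 1 region within 100 kb, at -64941 bp with a score of 55.31. It lay in the 3′ UTR of Add3, in exon 15, and held 1 C/EBP word away from its centre. A stronger candidate with a score of 181.96 lay outside the limit, at -124739 bp. RefSeq lists later starts for Mxi1, from which the first region was -83848 and -84130 bp away, still within 100 kb.

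Mnt (chr11:74644422-74659227, plus strand), the most broadly expressed of the repressors, carried the strongest region of the 7 genes. It covered chr11:74643567-74644530, was centred at -373 bp and spanned the TSS. Its score of 426.6, where the next highest of the 29 was 155.49, placed it 123rd of 17899, so that 0.687% of candidates scored at least as high. It was the 1 region of the 29 in the filtered set, against 2.22% of all candidates, and ranked 115th by score among the 397 and 49th among the 119 of these within 1 kb of a TSS. Of all genes, 2.21% had a candidate within 100 kb that scored at least as high.

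No C/EBP word occurred anywhere in the 964 bp of the Mnt promoter region. Of the 119 filtered regions within 1 kb of a TSS, 79.0% held one (exact 95% binomial interval 70.6 to 85.9). In the whole filtered set 85.1% did. Windows of 964 bp around all candidates and all promoters at the same offset held one in 54.9% and 52.2%. The region held 1 ETS word at -156 bp, 1 CACGTG at -119 bp and 4 SP1 words, 3 of which lay at -101, -77 and -47 bp from the TSS. Both the ETS word and the E-box can be read in the sequence before the start, away from the centre of the region. CACGTG was held by 23.5% of the filtered regions within 1 kb of a TSS and by 16.7% of promoter windows of this length, and CCCGCCC by 40.9% of those windows. GC content was 63.3%. An absent word says only that these letters are not in the region, and a present one is not a measured site.

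The remaining regions of Mnt had low scores. The one at -7745 bp (52.9) lay in the 3′ UTR of Mettl16, in exon 10, and the one in Sgsm2 was described above. Thus a high score was found at 1 position of the locus and nowhere else within 100 kb.

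**Figure D4:**
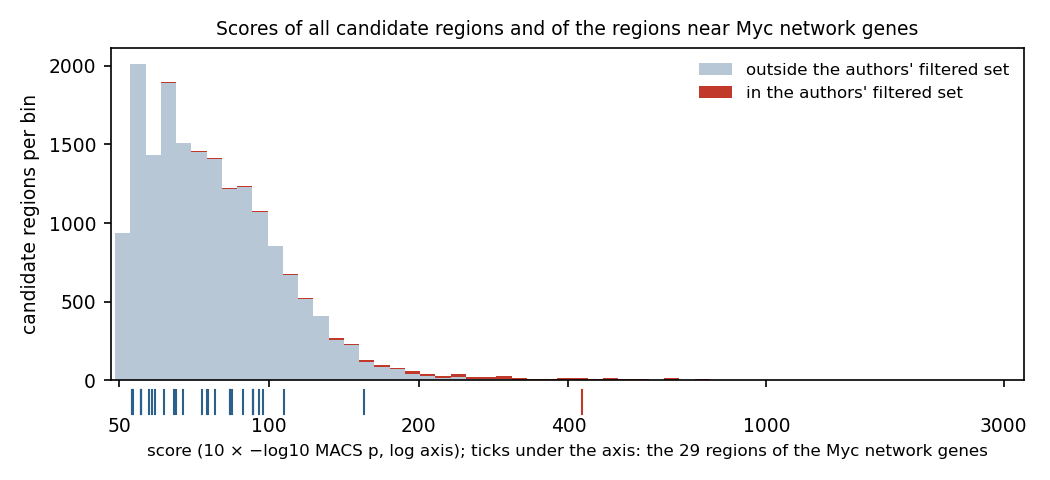
Number of candidate regions per bin of score (log axis), in grey outside and in red inside the filtered set, with the 29 regions of the Myc network genes as ticks under the axis. The red tick at 426.6 is the Mnt promoter region and the nearest below it, at 155.49, is the region upstream of Myc.

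Taking the 29 regions as a group, their scores were close to those of the list at large. The median was 74.89 (range 52.9 to 426.6), and 74.065 without the Mnt promoter region, against 73.75 over all candidates and 263.88 over the filtered set. A score of at least 100 was reached by 3 of the 29, at Mnt, at Myc upstream and in the far window of Myc, against 20.3% of all candidates. Median width was 585 bp against 587 bp, and median GC content 47.9% against 48.7%. Of the 22 regions within 100 kb, 14 lay upstream and 8 downstream of the TSS, and 15 were intergenic, 4 intronic, 2 in a 3′ UTR and 1 in a coding exon. For 5 of these 22 another gene had the nearest TSS.

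Words were counted on both strands within 70 bp of the centre. A C/EBP word was present there in 3 of the 29 regions (10.3%, exact 95% binomial interval 2.19 to 27.4), against 10.6% of all candidates and 51.6% of the filtered set (46.6 to 56.7). These 3 regions were those of Myc upstream, Myc far downstream and the Mxd1 promoter. Anywhere in the region, 11 of 29 held a C/EBP word (37.9%), against 36.3% of all candidates. CACGTG lay near the centre in 2 of the 29 (6.9%, 0.846 to 22.8), against 2.51% of all candidates, and anywhere in the region in 4 of 29 (13.8%, 3.89 to 31.7), against 9.79%. The intervals cover counting error only, and each of those given here for the 29 regions holds the share of all candidates.

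ETS words (CGGAAGT or CGGAAGC or AGGAAGT or AGGAAGC) lay within 70 bp of the centre in 5 regions (17.2%, 5.85 to 35.8, against 10.1% of all candidates), and RUNX words (TGTGGTT or TGTGGTC or TGCGGTT or TGCGGTC) in 2 (6.9% against 6.77%). SP1 words lay there in 2 (6.9% against 1.58%), GATA words in 3 (10.3% against 8.65%) and AP-1 words in the 4 of the Myc locus (13.8%, 3.89 to 31.7, against 2.57%). Over whole regions, ETS words were in 48.3% of the 29 (29.4 to 67.5) against 33.9% of all candidates, RUNX words in 31.0% (15.3 to 50.8) against 24.6%, and SP1 words in 17.2% (5.85 to 35.8) against 5.94%. AP-1 words were in 20.7% (7.99 to 39.7) against 10.9%, and GATA words in 17.2% (5.85 to 35.8) against 37.5%. Of these 5 intervals over whole regions, the one for GATA left out the share of all candidates. Within 70 bp of the centre the interval for AP-1 also left it out, and the GATA share went the other way. In the promoters of the 7 genes, taken from 250 bp before to 50 bp after the TSS, no C/EBP, GATA or AP-1 word was found, where 17.2%, 16.7% and 4.35% of all promoters held one. SP1 words were in 6 of the 7 promoters, all but that of Max, against 33.0% of all promoters. CACGTG was in those of Max and Mnt, against 7.86%. GC content of the 7 promoters ran from 56.0% to 76.7%, with a median of 55.7% over all promoters.

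**Figure D5:**
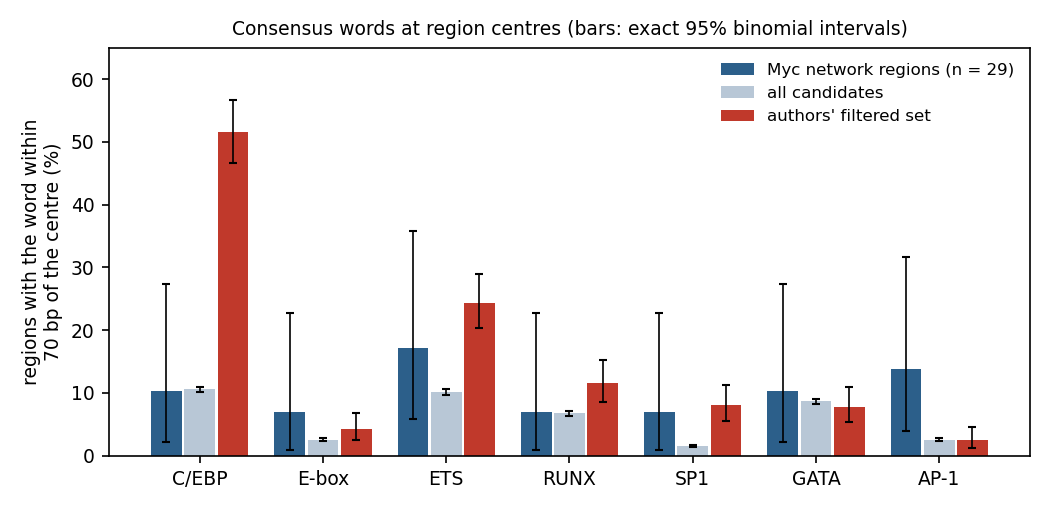
Share of regions (%) with each word within 70 bp of the centre, for the 29 regions of the Myc network genes (blue), all candidates (grey) and the filtered set (red), with exact 95% binomial intervals. The C/EBP word is in 10.3% of the 29 and in 51.6% of the filtered set.

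Other genes of the network were taken from lists, whose counts stand beside 79.2% of all genes with a candidate within 100 kb, 3.03% with one within 1 kb and 5.98% with a filtered region within 100 kb. With 9 to 20 genes a list, nothing particular to a list is read from them. A list of 9 further genes was set beside MAX and its relative MLX, and not every one encodes a partner of either. All 9 had a candidate within 100 kb, none within 1 kb, and 2 had a filtered region within 100 kb. At Mlxipl (ChREBP, the glucose-responsive factor) this region scored 930.68 but lay at -97776 bp and only -173 bp from the TSS of Abhd11. At Mxd3 it scored 256.65 at -75873 bp, with Slc34a1 as the nearest TSS at 5983 bp. Both therefore lay nearer to another gene. Among 20 genes for the stability and the cofactors of MYC, 14 had a candidate within 100 kb. Among 20 known MYC target genes, 19 had a candidate within 100 kb, none a filtered region, and 1 a candidate within 1 kb. It was Shmt2, a mitochondrial enzyme of serine metabolism, with a score of 111.01 at 495 bp and 1 CACGTG in the region. Of 12 protein-coding genes around Myc on chromosome 15, 10 had a candidate within 100 kb (83.3%) and 2 within 1 kb, Adcy8 (122.8 at -771 bp) and Trib1 (136.77 at 286 bp), and none had a filtered region. Trib1 encodes a pseudokinase known to direct C/EBPα to degradation.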

How the data were processed

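The authors mapped reads with bowtie and called regions with MACS at a p-value threshold of 1e-05 against an IgG mock. The submitters' processing notes name Bowtie 0.12.8, bedtools 2.16.2, MACS 1.4.2 and mm9. The deposited file gives position and score of each region under 1 sample, with no read numbers, so the depth is unknown. Whether reads of several libraries entered the call is not given in the sources used here. Candidates were marked as filtered by identical position in the authors' list, from which no value was taken. The TSS of each gene was that of the transcript with the longest span in GENCODE for NCBIM37 (mm9). RefSeq promoters (GRCm38.p6), with entries for 6 of the 7 genes, were placed in mm9 by exact match. Sequence was read from mm9, and words were counted on both strands, where the region centre stands for the summit. Same-length windows were centred on every candidate, or placed at the same offset from every TSS. Repeated sequence was the share of 32-mers found more than once. Genes and lists were chosen with earlier results of these data known. Regions were described in full when nearest to a gene, of highest score, filtered, of score at least 100, within 5 kb of a TSS or with a central C/EBP word, and downstream of Myc also the 5 of highest score. Other genes were named for a filtered region within 100 kb or a score of at least 100 within 1 kb. A gene covered by that rule is not reported here. The regions with central AP-1 or E-box words were added after their values were seen. Intervals are exact (Clopper-Pearson) at 95%. Counting of the C/EBP, CACGTG, ETS, RUNX and SP1 words was tested on simulated sequence, and that of the GATA, AP-1 and TGACGTCA words was not. Software was samtools 1.23.1 and Python 3.11.15 with matplotlib 3.10.9, pysam 0.24.0, pandas 2.3.3, numba 0.67.0, scipy 1.17.1 and numpy 2.4.6.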

Additional observations from a re-analysis of the deposited data

How the results depend on the processing

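Of 37 alternatives computed, 25 stayed within 1.5 times the reported count, inside the interval of the share, or inside the exact interval of the median score (58.84 to 88.58). The number of regions near the 7 genes, 22, followed the distance, with 12 within 50 kb and 38 within 200 kb, and the score, with 14 at a score of at least 60 and 2 at 100, where 2 genes kept a region. At a score of at least 100, 1 region was left downstream of Myc. The region of the filtered set was 1 under all 5 ways of joining or setting the distance. With TTGCGCAA alone, a central C/EBP word was found in 0.0% of the 29, against 0.525% of all candidates. With the letters reversed it was 0.0%, against 6.72%. The C/EBP word was in 27.6% of the 29 within 150 bp of the centre. It was in 37.9% of whole regions, against 36.3% of all candidates. The share of all candidates within 150 bp was not computed, and a wider window holds any word at least as often. The looser E-box CANNTG was in 58.6%, and in 59.5% of all candidates. The median of the genes' own medians was 61.54. Width in place of score has a median of 585 bp, which has another unit and was counted as changed without a comparison. The reversed letters, which are not a C/EBP word, were also counted among the 37. RefSeq starts for 6 genes, with the annotated start kept for Myc, an alternative chosen after seeing the data, left 22 regions and 7 genes. The list has no depth and no replicate, so no alternative could leave out a sample.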
